A study of Mus musculus with 8 samples.

Results

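The Notch genes described here were Notch1, Notch2, Notch3, Jag1, Jag2, Dll1, Hes1, Hey1, Nrarp and Lfng, chosen by name as receptors, ligands, targets and a receptor modifier of 1 signalling pathway. All 10 were found, among 13437 protein-coding genes in the authors' table. They were measured by RNA sequencing of corneas from female C57BL/6 mice aged 6 to 8 weeks, in a model of dry eye disease. In the BAC group, eyes received 5 µl of 0.2% BAC topically, 2 times daily for 7 days; in the PBS group, eyes received PBS. BAC is the labels' abbreviation, which in dry eye models usually stands for benzalkonium chloride, a surfactant used as an eye drop preservative. There were 4 samples per group, taken at day 7, and the labels state no other difference between the groups. How many animals went into 1 sample is not stated, so p-values measure only the spread between these samples, which may be technical.

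Notch receptors are cell surface proteins that are cut after a ligand on a neighbouring cell binds them, and the freed intracellular part enters the nucleus and joins the DNA-binding protein RBPJ to switch on targets such as Hes1. In mice, Notch1 in the corneal epithelium is needed to keep corneal identity when the epithelium repairs a wound. In blood vessels, ligands of the delta and jagged families act between endothelial and mural cells.

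Corneas given BAC held fewer transcripts of Notch3, of all 3 ligands and of the target Hes1. They held more of Notch2, of the fringe gene Lfng and of the target Hey1. The rises of Notch2 and Lfng did not pass after a rescaling described further on. For Hey1, a filter on the mean level, also described further on, fixed the direction in advance. Values are FPKM, fragments counted per length of gene and per total of fragments, so that levels of different genes can be compared. Of the 10 genes, 5 were lower, 3 were higher and 2, Notch1 and Nrarp, did not pass (limma on log2(FPKM + 1), Benjamini-Hochberg adjusted p of 0.05 over 12967 genes). Among all genes tested 67.6% passed, 22.6% lower and 45.1% higher, so a count of 8 of 10 in either direction is not far from the background. BAC and PBS values were apart, with no overlap, for 8 of the 10, against 63.5% of all genes. The median log2 change was -0.31 over the 10 genes and 0.19 over all genes. Because all genes together lay 0.19 above 0, changes relative to that median are given beside some of those on the deposited scale. Over all genes, 5845 were higher and 2926 lower as deposited. Rescaling each sample by its median ratio to the geometric mean of all samples (median-of-ratios scaling) gave 4467 higher and 4229 lower, and giving all samples 1 distribution (quantile normalization) gave 3946 higher and 4967 lower.

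**Figure D1:**
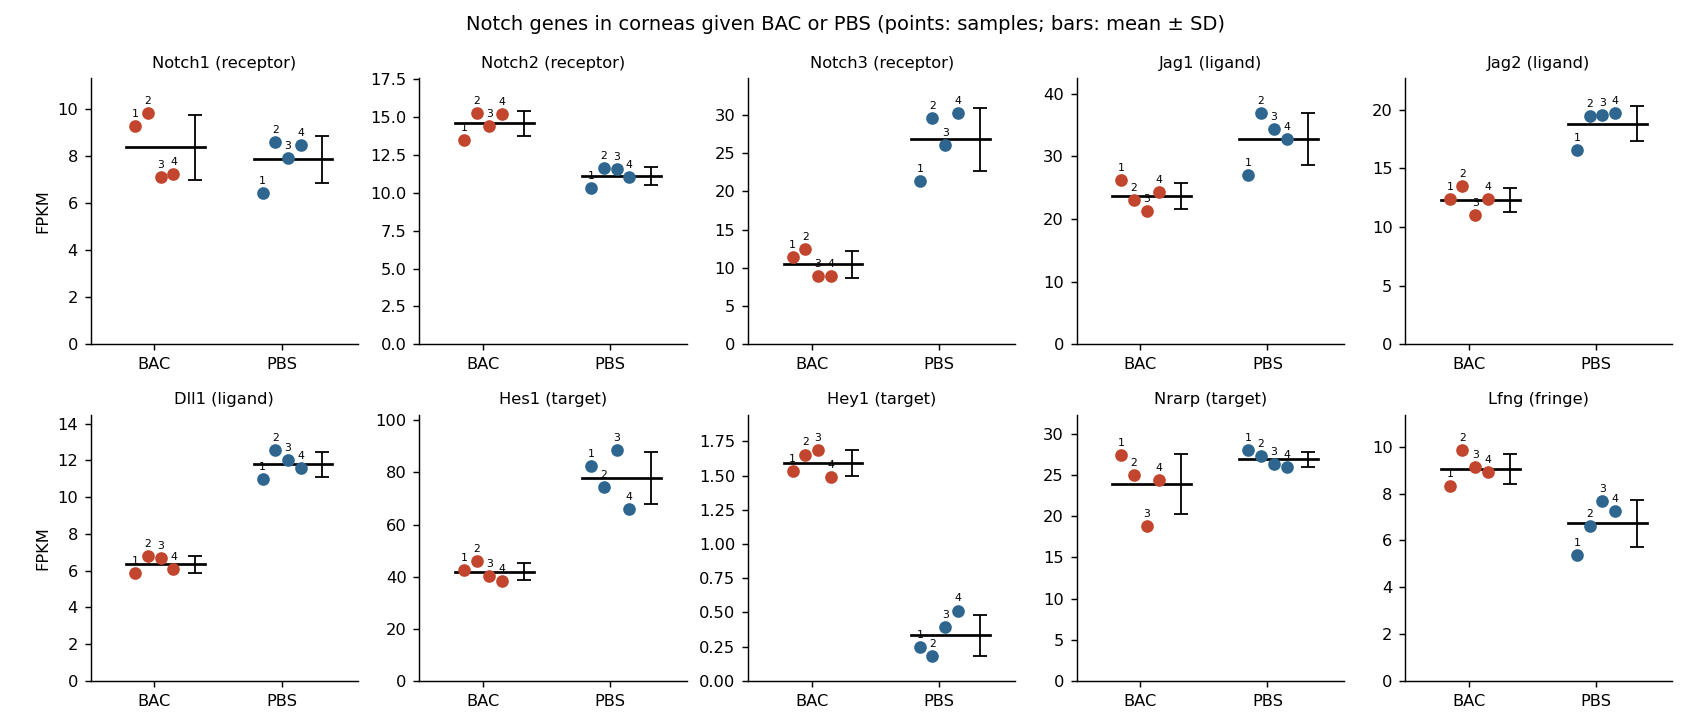
FPKM of each of the 10 Notch genes in every sample, BAC left of PBS, with points numbered by replicate and bars for the mean ± SD (n = 4 each). Every BAC point lies below every PBS point for Notch3, Jag1, Jag2, Dll1 and Hes1, and above every PBS point for Notch2, Lfng and Hey1.

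Among the control libraries, PBS 1 held the lowest value for 7 of the 10 genes. With PBS 1 left out, the same 5 genes were lower and the same 3 higher, and the log2 change of Notch1 was -0.01 in place of 0.08, without passing in either case. Summed FPKM over all genes ran from 268629 to 283538 per sample, and read depth is unknown. Krt12, the keratin that defines corneal epithelium, was at 10.5 ± 2.98 FPKM with BAC and 10325 ± 228 FPKM with PBS, so this defining marker of the labelled tissue was almost absent in the BAC corneas.

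Promoter windows of 300 bases from RefSeq (build GRCm38.p6), 250 before and 50 after a start, were at hand for 8 of the 10 genes, all but Hes1 and Hey1. Shown are those of the gene that fell furthest (Notch3), of a target that did not pass (Nrarp) and of the 1 gene whose window held an RBPJ motif (Lfng). Capitals mark GTGGGAA, the RBPJ motif, and CACNAG, the N box bound by HES repressors, on either strand; the motifs can share bases but did not do so here.
Notch3, chr17:32166841-32167140, minus strand: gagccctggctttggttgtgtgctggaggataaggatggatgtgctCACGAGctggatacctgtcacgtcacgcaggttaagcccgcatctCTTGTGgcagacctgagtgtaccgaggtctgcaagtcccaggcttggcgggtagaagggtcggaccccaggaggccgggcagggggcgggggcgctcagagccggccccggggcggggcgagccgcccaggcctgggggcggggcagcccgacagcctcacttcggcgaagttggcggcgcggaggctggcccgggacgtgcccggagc
Nrarp, chr2:25180508-25180807, plus strand: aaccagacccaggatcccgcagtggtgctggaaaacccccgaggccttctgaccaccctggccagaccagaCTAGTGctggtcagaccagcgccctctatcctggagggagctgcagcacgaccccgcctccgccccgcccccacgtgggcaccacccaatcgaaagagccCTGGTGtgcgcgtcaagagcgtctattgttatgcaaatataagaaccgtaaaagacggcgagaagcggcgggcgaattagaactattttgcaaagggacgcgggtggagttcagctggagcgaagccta
Lfng, chr5:140607091-140607390, plus strand: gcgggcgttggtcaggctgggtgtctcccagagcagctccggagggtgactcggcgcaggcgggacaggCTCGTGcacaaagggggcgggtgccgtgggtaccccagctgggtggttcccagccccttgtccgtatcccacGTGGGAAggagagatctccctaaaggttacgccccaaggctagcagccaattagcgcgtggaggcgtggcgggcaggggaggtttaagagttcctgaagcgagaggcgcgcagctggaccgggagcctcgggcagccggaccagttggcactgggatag

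In Lfng the single RBPJ motif stands just left of the middle of the window and an N box lies further from the start. Notch3 and Nrarp each held 2 N boxes and no GTGGGAA. Dll1 had a pair of windows, so there were 9 in all. GTGGGAA was found in 1 of these 9 windows, against 6.38% of all 32851 windows in the table, and CACNAG in 6 of 9, against 42.5%. A match is a string of letters and does not show that a factor binds there.

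The receptors did not change alike. Gene positions are those of the deposited table, on GRCm38. Notch3 (chr17:32120820-32166880, minus strand), a receptor known for its role in the mural cells of vessels and also present in stratified epithelia, measured 11.4, 12.5, 8.97 and 8.96 FPKM in BAC corneas, against 21.4, 29.6, 26.1 and 30.3 FPKM in PBS corneas. The highest BAC value lay far below the lowest PBS value. Its log2 change was -1.28 (SE 0.14, limma, adjusted p = 2.71e-05), or -1.47 relative to the median of all genes. In bulk samples, fewer cells of a type and less RNA per cell cannot be told apart.

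Notch2 (chr3:98013527-98150361, plus strand), a receptor found in many tissues, measured 13.5, 15.3, 14.4 and 15.2 FPKM in BAC corneas, against 10.3, 11.6, 11.5 and 11.1 FPKM in PBS corneas. All BAC values lay above all PBS values. It rose by 0.36 on the log2 scale (SE 0.07, limma, adjusted p = 0.000916), or 0.17 above the median of all genes. After median-of-ratios scaling it was 0.16 and did not pass (limma, adjusted p = 0.0595).

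Notch1 (chr2:26457903-26516663, minus strand), the receptor tied to corneal repair and to keratinocyte differentiation in mouse skin, measured 9.30, 9.83, 7.12 and 7.24 FPKM in BAC corneas, against 6.44, 8.62, 7.92 and 8.46 FPKM in PBS corneas. The groups overlapped, with 2 BAC samples above all PBS samples and the other two within their range. Its log2 change was 0.08, with a 95% interval from -0.20 to 0.36 (limma, adjusted p = 0.604). After median-of-ratios scaling and quantile normalization it was -0.12 and -0.14, again without passing.

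Within each sample the make-up of the receptor transcripts changed. Notch3 made up 31.1% ± 2.49 of the summed FPKM of the 3 receptors with BAC and 58.4% ± 2.12 with PBS (SD, n = 4 each), a difference of -27.3 points. Notch2 made up 44.0% ± 4.54 with BAC and 24.5% ± 2.15 with PBS, and Notch1 24.9% ± 2.07 with BAC and 17.2% ± 0.242 with PBS. Each of these 3 shares had p = 0.0286 in a two-sided exact permutation test, the smallest that 70 assignments allow, or 0.0429 adjusted over 6 shares. Receptor shares, like the ligand shares below, are parts of 1 whole in each sample. They are therefore tied, and a lower share of Notch3 raises the others. The summed FPKM of the 3 receptors was 33.4 ± 3.17 FPKM with BAC and 45.8 ± 5.50 FPKM with PBS. The groups did not overlap, but BAC 2 at 37.6 FPKM and PBS 1 at 38.1 FPKM were close. With Notch4, described below, added, the sums reached 38.5 FPKM with BAC and began at 38.2 FPKM with PBS, and so overlapped.

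The ratio of receptors to each other does not depend on a factor that scales a whole sample, apart from the pseudocount; quantile normalization is no such factor and can move it. Notch1 minus Notch3, on the log2 scale, was -0.29 ± 0.02 with BAC and -1.64 ± 0.06 with PBS, a difference of 1.36 (exact permutation test, adjusted p = 0.0429 over 9 pairs). The ratio was nearly constant within each group, although both genes varied between libraries. Notch2 minus Notch3 differed by 1.65 (exact permutation test, adjusted p = 0.0429). Notch1 minus Notch2 differed by -0.29, with overlapping groups (exact permutation test, adjusted p = 0.129). The 9 pairs include those with Hey1, whose direction the filter fixed, as described below. Pairs with Hey1 were at the smallest p and so lower the adjusted p of the other pairs. Before adjustment, p was 0.0286 for Notch1 minus Notch3 and for Notch2 minus Notch3 (exact permutation test).

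**Figure D2:**
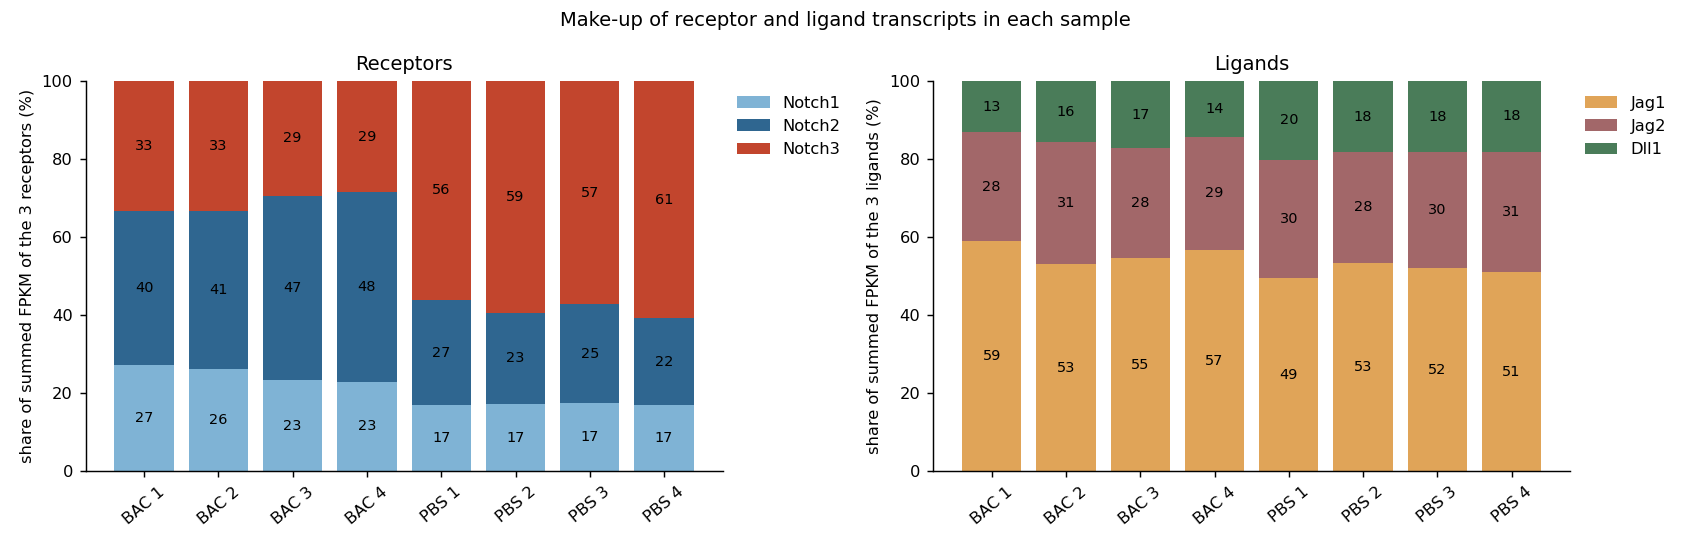
Share of each gene (%) in the summed FPKM of the 3 receptors (left) and the 3 ligands (right), 1 bar per sample, BAC samples left of PBS samples. Notch3 makes up 28.5% to 33.3% of receptor FPKM in BAC samples and 56.1% to 60.8% in PBS samples, while each ligand's shares lie within 10 points over all samples.

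All 3 ligands were lower with BAC. Dll1 (chr17:15367354-15376872, minus strand), a delta-like ligand, measured 5.86, 6.79, 6.68 and 6.07 FPKM in BAC corneas, against 11.0, 12.6, 12.0 and 11.6 FPKM in PBS corneas. Within each group its values were close together, and the groups stood far apart. On the log2 scale Dll1 changed by -0.80 (SE 0.07, limma, adjusted p = 7.71e-06), or -0.99 relative to the median of all genes.

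Jag2 (chr12:112907819-112929776, minus strand), a jagged ligand present in stratified epithelia, measured 12.4, 13.5, 11.0 and 12.4 FPKM in BAC corneas, against 16.6, 19.5, 19.5 and 19.7 FPKM in PBS corneas. PBS 1 stood apart from the other controls, towards the BAC values, and the groups still did not overlap. Jag2 fell by 0.57 on the log2 scale (SE 0.08, limma, adjusted p = 0.000194).

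Jag1 (chr2:137081456-137116644, minus strand), the most abundant ligand of the 3 in both groups, measured 26.2, 23.0, 21.2 and 24.2 FPKM in BAC corneas, against 27.0, 36.9, 34.3 and 32.8 FPKM in PBS corneas. BAC 1 and PBS 1 lay close to each other, and the other samples of the groups were well apart. Its change was -0.45 on the log2 scale (SE 0.10, limma, adjusted p = 0.00374).

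Together the 3 ligands summed to 42.3 ± 2.42 FPKM with BAC and 63.4 ± 6.23 FPKM with PBS. Whether the fall was unequal rested on the make-up of the pairs tested. Jag1 minus Dll1 differed by 0.35 log2 between groups (exact permutation test, adjusted p = 0.0429, lowered by the Hey1 pairs as said above). For Jag2 minus Dll1 the difference was 0.23 (exact permutation test, adjusted p = 0.110) and for Jag1 minus Jag2 it was 0.13 (exact permutation test, adjusted p = 0.143). Dll1 made up 15.1% ± 1.74 of ligand FPKM with BAC and 18.7% ± 0.989 with PBS (exact permutation test, adjusted p = 0.0429). The shares of Jag1 and Jag2 differed by 4.32 and -0.69 points and did not pass (exact permutation test, adjusted p = 0.0686 and 0.514).

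Of the 3 targets, Hes1 fell, Nrarp did not pass, and Hey1 was higher in a direction that the filter fixed. Hes1 (chr16:30064384-30067796, plus strand), a transcriptional repressor that is a direct target of Notch in many tissues, measured 42.6, 46.2, 40.4 and 38.4 FPKM in BAC corneas, against 82.6, 74.4, 88.7 and 65.9 FPKM in PBS corneas. No BAC sample came near the lowest PBS sample. Its log2 change was -0.87 (SE 0.10, limma, adjusted p = 3.91e-05), or -1.06 relative to the median of all genes. Hes1 responds to other signals besides Notch.

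Hey1 (chr3:8663359-8667256, minus strand), a related repressor that is a Notch target in endothelial cells, measured 1.53, 1.65, 1.69 and 1.49 FPKM in BAC corneas, against 0.249, 0.180, 0.392 and 0.514 FPKM in PBS corneas. It was the least abundant of the 10 genes in both groups, and its BAC values all lay above its PBS values. Hey1 rose by 0.96 (log2, SE 0.09, limma, adjusted p = 1.52e-05), and the ratio of the means was 4.76. With a PBS mean of 0.334 FPKM, Hey1 met the filter (a mean of 0.5 FPKM over all samples) by its BAC values alone, which fixes its direction in advance. For so low a gene the size depends on the scale: it was 0.42 after quantile normalization and 2.03 with a pseudocount of 0.1.

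Nrarp (chr2:25180758-25183339, plus strand), a target whose protein dampens Notch signalling, measured 27.5, 25.0, 18.8 and 24.4 FPKM in BAC corneas, against 28.1, 27.3, 26.4 and 26.0 FPKM in PBS corneas. In 3 of the 4 BAC samples it lay below all PBS samples, and BAC 1 lay within their range. Its fitted log2 change was -0.18, with a 95% interval from -0.41 to 0.06 (limma, adjusted p = 0.161). Without BAC 3, its lowest sample, the change was -0.07. Nrarp passed as lower after median-of-ratios scaling, at -0.39 (limma, adjusted p = 0.00665), and after quantile normalization, at -0.26 (limma, adjusted p = 0.0451).

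The ratio of Hes1 to Nrarp was lower with BAC, with Hes1 minus Nrarp differing by -0.70 log2 between the groups (exact permutation test, adjusted p = 0.0429). Hey1 minus Nrarp differed by 1.14 and Hes1 minus Hey1 by -1.84. Since the filter fixed the direction of Hey1, these 2 values are a description. Their place in the same adjustment lowers the adjusted p of Hes1 minus Nrarp.

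Lfng (chr5:140607320-140615545, plus strand), which adds sugars to Notch receptors and alters which ligands activate them, measured 8.31, 9.87, 9.13 and 8.93 FPKM in BAC corneas, against 5.38, 6.60, 7.69 and 7.27 FPKM in PBS corneas. The groups did not overlap, with PBS 3 nearest to the BAC samples. Lfng rose by 0.39 (log2, SE 0.10, limma, adjusted p = 0.00821), or 0.20 above the median of all genes. It did not pass after median-of-ratios scaling, at 0.19 (limma, adjusted p = 0.129), or after quantile normalization, at 0.16 (limma, adjusted p = 0.159).

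**Figure D3:**
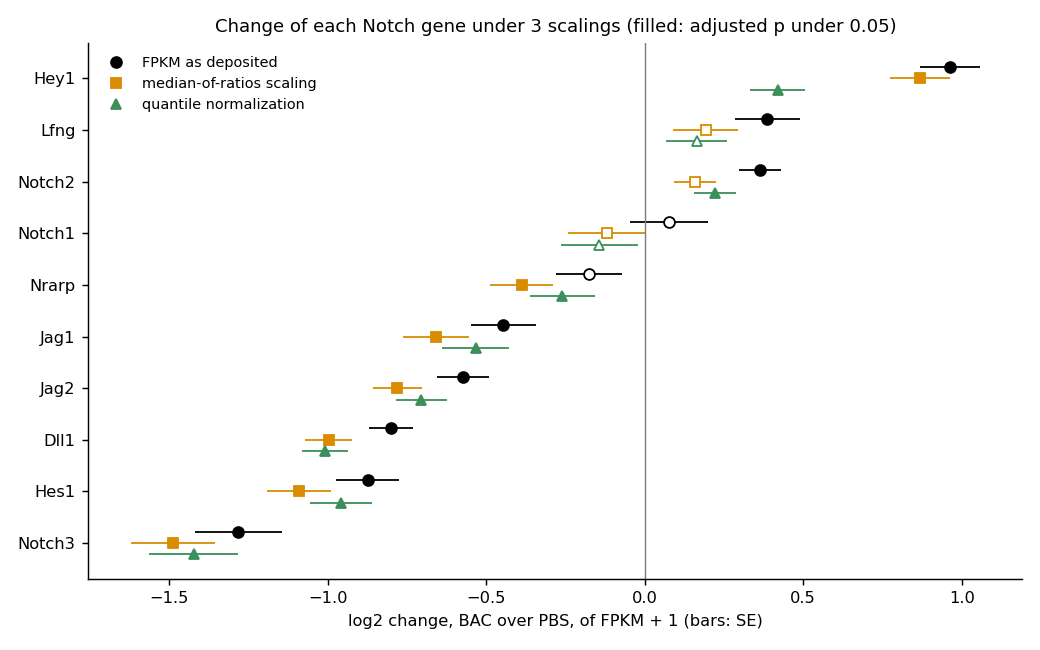
Log2 change of each Notch gene, BAC over PBS, on the FPKM as deposited and under 2 other scalings, with bars for the SE; filled symbols passed an adjusted p of 0.05. The 5 genes that fell stay below 0 and filled under each scaling. Hey1 stays above 0 and filled, in a direction that the filter fixed in advance. Notch1, Notch2, Lfng and Nrarp change sides of the threshold or of 0.

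Ordered by level, Hes1 was the most abundant of the 10 genes in both groups. With BAC it was followed by Nrarp, Jag1, Notch2, Jag2, Notch3, Lfng, Notch1, Dll1 and Hey1. The ranges of Nrarp and Jag1 overlapped, as did those of Jag2 and Notch3, of Notch3 and Lfng, and of Lfng and Notch1. With PBS the order was Hes1, Jag1, Nrarp, Notch3, Jag2, Dll1, Notch2, Notch1, Lfng and Hey1. There the ranges of Jag1 and Nrarp, of Nrarp and Notch3, of Dll1 and Notch2, and of Notch1 and Lfng overlapped. Notch3 was thus the most abundant of the 3 receptors with PBS, at 26.8 FPKM, while Notch2 was with BAC, at 14.6 FPKM.

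The transcript table held 11 protein-coding transcripts of these genes, 1 for each gene but Jag2. All 11 were tested, and 8 passed in the same direction as their gene (5 lower, 3 higher, limma). Over all 23349 transcripts 34.6% passed, and over all genes 67.6%. For a gene with 1 transcript this largely repeats the gene result. The Hey1 transcript had a PBS mean of 0.408 FPKM, so the filter fixed its direction too. The transcripts of Notch1 and Nrarp did not pass, nor did the shorter of the Jag2 transcripts (chr12:112913705-112915957, minus strand). The longer one, which spans the gene, was at 15.9 ± 1.35 FPKM with BAC and 24.5 ± 1.96 FPKM with PBS (log2 change -0.59, limma, adjusted p = 0.0014). The shorter one was at 1.55 ± 0.821 FPKM with BAC and 1.02 ± 0.286 FPKM with PBS. It made up 8.92% ± 5.00 of Jag2 FPKM with BAC, with BAC 3 at 15.5% and BAC 4 at 3.41%, and 3.94% ± 0.848 with PBS (exact permutation test, p = 0.114).

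Around the 10 genes, a wider list of the pathway held 53 further genes, of which 46 were tested and 7 were not analysed here. Of these 24 were higher and 9 lower, with a median log2 change of 0.24, near the 0.19 of all genes. With median-of-ratios scaling the counts were 19 higher and 14 lower, and with quantile normalization 17 and 15. For 7 of the 46, all higher, the PBS mean was under 0.5 FPKM, so that the filter kept them through BAC alone; of the other 39, 17 were higher and 9 lower.

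The genes nearly absent with PBS included those known from vessels. Notch4, an endothelial receptor, was at 1.12 ± 0.475 FPKM with BAC and 0.0611 ± 0.0162 FPKM with PBS, and Dll4, an endothelial ligand, at 2.17 ± 0.420 FPKM with BAC and 0.156 ± 0.111 FPKM with PBS. Heyl, a target known from mural cells, was at 3.94 ± 0.668 FPKM with BAC and 0.200 ± 0.128 FPKM with PBS. The fringe gene Mfng was at 2.36 ± 0.309 FPKM with BAC and 0.117 ± 0.164 FPKM with PBS. Each of these 4 passed as higher, with log2 changes of 0.97 (Notch4), 1.45 (Dll4), 2.04 (Heyl) and 1.59 (Mfng). Notch4 in BAC 3 was at 1.83 FPKM, the highest of its group, and without BAC 3 its mean over the samples fell under the filter and it was not tested. Dlk2, a delta-like protein that lacks the receptor-activating domain of classical ligands, was at 4.10 ± 0.379 FPKM with BAC and 2.11 ± 0.241 FPKM with PBS and rose by 0.72.

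Markers of the cells of vessels were higher with BAC too. The filter had fixed the direction of Notch4, Dll4, Heyl, Mfng and Hey1, so a direction shared with these markers is a description. All 8 endothelial markers rose, their summed FPKM running from 135 to 169 with BAC and from 12.0 to 23.0 with PBS. All 8 mural cell markers were higher too, 4 of them with a PBS mean under 0.5 FPKM, so that the filter fixed their direction; Pdgfrb, Rgs5, Myh11 and Acta2 were not among these. Their sums ran from 328 to 435 with BAC and from 10.7 to 35.3 with PBS. The 8 leukocyte markers were higher as well, 5 of them with a direction fixed in the same way and Csf1r, Lyz2 and Cd68 without. Their sums ran from 807 to 1239 with BAC and from 20.6 to 26.2 with PBS, and Csf3r was at 0 in 2 PBS libraries. The part of these cells in the rises of Hey1, Notch2, Lfng and the 4 genes above was not tested.

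Notch3 fell in samples where Pdgfrb, Rgs5, Myh11 and Acta2, the mural cell markers without a fixed direction, were higher. The part of mural cells in the level of Notch3 was not tested. Beside the falls of Notch3, the ligands and Hes1, 4 of 7 corneal epithelium markers fell, 2 rose and 1, Cdh1, did not pass. Krt12, Krt5, Pax6 and Aldh3a1 fell. Krt14 rose, at 2510 ± 331 FPKM with BAC and 229 ± 29.1 FPKM with PBS. Epcam rose as well, at 132 ± 3.87 FPKM with BAC and 54.9 ± 1.66 FPKM with PBS. Summed FPKM of the 7 markers ran from 4421 to 5665 with BAC and from 21087 to 22840 with PBS, and none was at 0. Cdh1, the cadherin of epithelial cells at large, was at 115 ± 11.1 FPKM with BAC and 109 ± 6.65 FPKM with PBS. All 5 measured conjunctival markers rose, with sums from 2676 to 3583 with BAC and from 1009 to 1416 with PBS. The part of the epithelium's make-up in the falls was not tested.

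Of the genes for the enzymes that cut Notch, 6 of 9 were higher, 1 of these (Aph1c) by the filter, and 1 was lower; as given above, 45.1% of all genes were higher and 22.6% lower. Median-of-ratios scaling left 3 higher and 1 lower, with Adam17 (-0.0212), Psen2 (0.14) and Ncstn (0.14) no longer passing, and with quantile normalization 4 were higher and 2 lower. Adam17 was lost in 6 of the 8 fits that left out 1 sample, and Psenen, the 1 that was lower, in 5. Adam10, which makes the first cut after ligand binding, was at 52.3 ± 3.95 FPKM with BAC and 22.3 ± 7.02 FPKM with PBS and rose by 1.25 (limma, adjusted p = 0.000862). Its PBS samples included PBS 4 at 11.9 FPKM, below the 24.7 to 27.4 FPKM of the others, and without PBS 4 the rise was 0.99. Furin, which trims the receptor before it reaches the surface, rose by 1.02. Psen2, a catalytic subunit of the gamma-secretase complex that makes the last cut, rose by 0.30 on the deposited scale and was at -0.10 after quantile normalization.

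In the nuclear complex, 2 of 8 genes were higher and 3 lower. Median-of-ratios scaling left 1 higher and gave 5 lower, with Ep300 (-0.32) and Kat2a (-0.30) now passing as lower. With quantile normalization 0 were higher and 5 lower, not the same 5. There Ep300 (-0.34) and Crebbp (-0.20) passed as lower, while Kat2a (-0.23) did not pass (limma, adjusted p = 0.0568). Rbpj, the DNA-binding partner of Notch, was at 6.93 ± 0.910 FPKM with BAC and 4.53 ± 0.321 FPKM with PBS and rose by 0.51 (limma, adjusted p = 0.000975); after quantile normalization it was at 0.24 and did not pass (limma, adjusted p = 0.0513). The coactivator genes Maml1, Maml2 and Maml3 split, with log2 changes of 0.43, -0.41 and -0.72 that all passed. Maml1 did not pass after median-of-ratios scaling (0.24) or quantile normalization (0.16).

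Corepressor genes split as well, with 4 of 9 higher and 2 lower. Under each of the other scalings 3 were higher and 3 lower, Tle3 then passing as lower, while Ctbp1 was lost with median-of-ratios scaling (0.0728) and Tle2 with quantile normalization (0.19). Spen, 1 of the 2 lower, was lost in 4 of the 8 fits that left out 1 sample. Tle4, a Groucho family corepressor that HES proteins recruit, was at 4.47 ± 0.376 FPKM with BAC and 13.9 ± 1.62 FPKM with PBS and fell by 1.45. Its relative Tle1 was at 2.46 ± 0.0681 FPKM with BAC and 0.479 ± 0.165 FPKM with PBS, a log2 difference of 1.23 whose direction the filter fixed. A list drawn up as negative regulators also held the deltex genes Dtx2, Dtx3 and Dtx4. Of its 7 tested genes 3 were higher and 1 lower, and outside the deltex genes only Numbl passed, as higher. Numb and Itch passed as lower after median-of-ratios scaling (-0.37 and -0.31) and quantile normalization (-0.31 and -0.25), making 3 lower, and Numbl was lost with quantile normalization (0.22). The deltex gene Dtx4 was at 7.97 ± 0.432 FPKM with BAC and 2.02 ± 0.287 FPKM with PBS and rose by 1.57. Its relative Dtx3 rose as well, while Dtx2 fell by 0.49.

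Of the enzymes that send ligands into the cell, an event needed for receptor cutting, Mib1 rose by 0.65 and Mib2 fell by 0.73. Neurl1b was 0.62 higher, with its direction fixed by the filter, and did not pass after quantile normalization, at 0.07. Of the glycosyltransferases, Poglut1, which adds glucose to the receptors' EGF repeats, rose by 0.57, while Pofut1 and Rfng did not pass. Besides the 3 targets already described, Myc was at 14.0 ± 1.35 FPKM with BAC and 7.27 ± 0.414 FPKM with PBS and Ccnd1 at 48.5 ± 12.6 FPKM with BAC and 81.9 ± 7.46 FPKM with PBS. Both passed, in opposite directions, and both answer to many signals other than Notch.

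**Figure D4:**
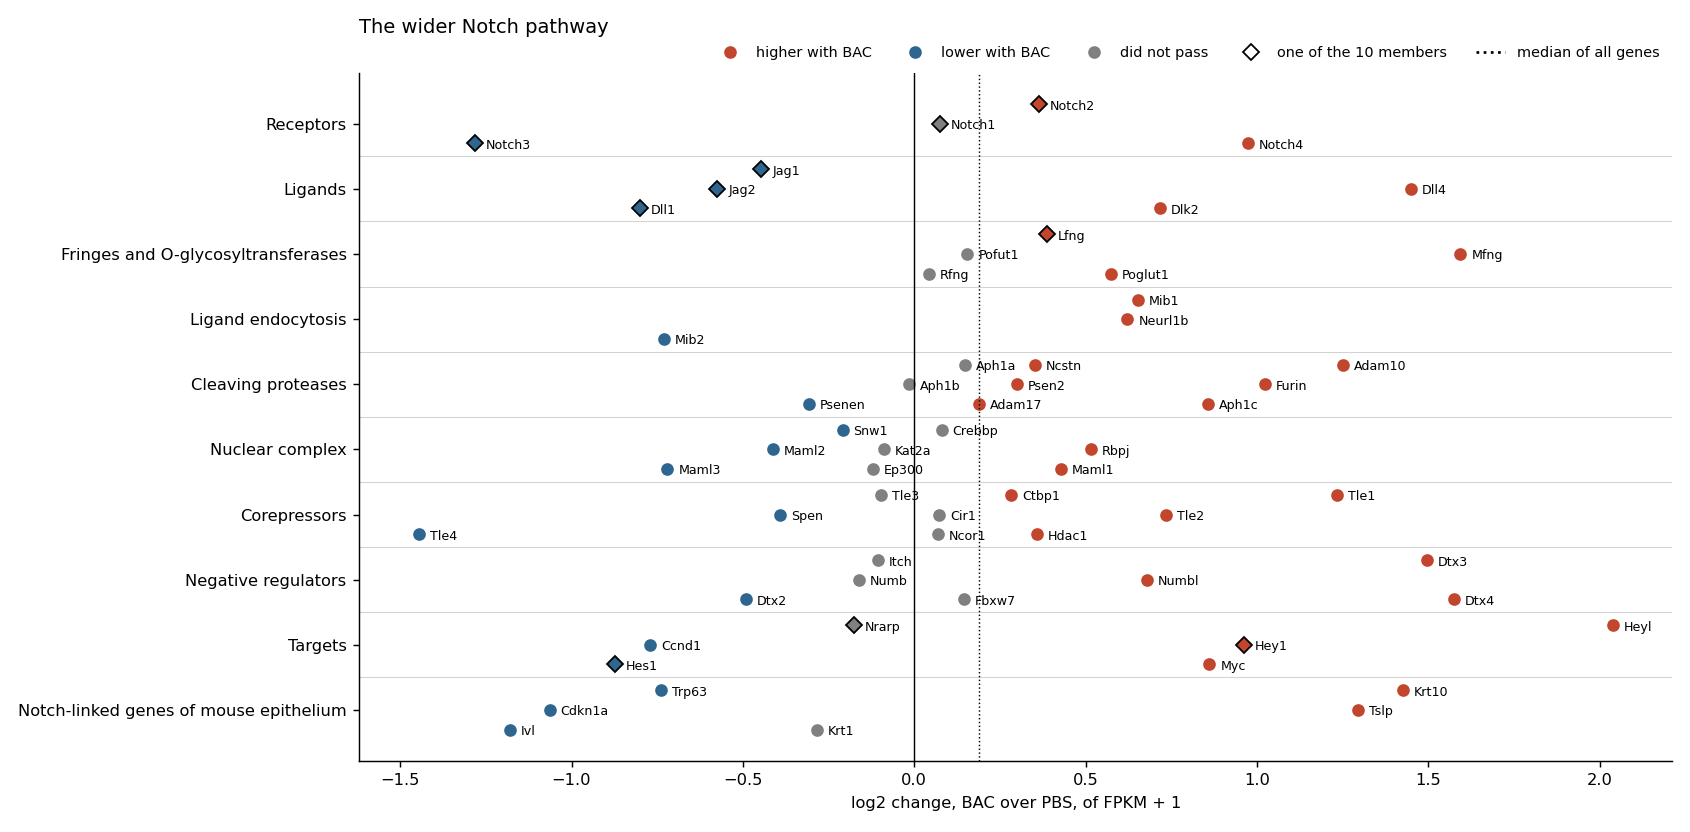
Log2 change, BAC over PBS, of every tested gene of the Notch lists, 1 row per list, with diamonds for the 10 genes described here and a dotted line at the median of all genes (0.19). In the ligand row Jag1, Jag2 and Dll1 lie left of 0 and Dll4 and Dlk2 right of it, and every other row but that of the fringes and glycosyltransferases holds genes on both sides of 0 on the deposited scale; Rfng and Pofut1 of that row lie left of 0 under both other scalings.

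A list of 6 genes tied to Notch in mouse epithelia had 2 higher and 3 lower. Cdkn1a, a cell cycle inhibitor that Notch raises in mouse keratinocytes, was at 33.7 ± 3.57 FPKM with BAC and 71.3 ± 2.42 FPKM with PBS and fell by 1.06. Trp63, the regulator of stratified epithelia, fell by 0.74. Tslp, a cytokine that rises in mouse skin without Notch, was at 3.27 ± 1.10 FPKM with BAC and 0.720 ± 0.272 FPKM with PBS. Of the keratinocyte differentiation genes, Krt10 rose by 1.43, Ivl fell by 1.18 and Krt1 was at -0.28 without passing. Krt1 passed as lower after median-of-ratios scaling (-0.43), after quantile normalization (-0.74) and without BAC 1 (-0.43).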

How the data were processed

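The authors deposited FPKM values of protein-coding genes and transcripts for each sample. Per the submitters' processing notes, HISAT2 2.1.0 and StringTie 1.3.3 were used with GRCm38, and per the labels' protocols libraries came from a KAPA stranded RNA kit; the strand setting of the counting is not given in the sources used here. No read counts were used, so depth, counting intervals and detection floors are unknown. Genes with a mean of at least 0.5 FPKM over the 8 samples were tested on log2(FPKM + 1) with limma 3.58.1 (R 4.3.3; moderated statistics, intensity trend, Benjamini-Hochberg adjustment over all genes tested, adjusted p of 0.05), BAC against PBS, without covariates. Shares and log2 differences between genes of 1 sample were compared with two-sided exact permutation tests (scipy 1.17.1), adjusted over 6 shares and 9 pairs. These steps were first tested on simulated data.

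Alternatives were a pseudocount of 0.1, no filter or a filter at 2, median-of-ratios scaling, quantile normalization, the transcript table, a replicate block and leaving out each sample. The text names all 10 genes, from each wider list the 2 genes with the largest change past the threshold, and, of the others, relatives of these, marker genes and most genes whose call moved with the scaling. Some genes of the lists are not reported here. Members, lists and tests were chosen with earlier results of these data known.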

Additional observations from a re-analysis of the deposited data

Results flagged for a closer look

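Of 140 groups of 4 samples examined, 9 held 1 sample that stood apart from the other 3 (by Dixon's test of the gap to the nearest sample against the whole range); chance gives about 1 in 20. PBS 1 was that sample in 3 of the 9.

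Among the 10 genes, Jag2 in PBS 1 was at 16.6 FPKM, against 19.5 to 19.7 FPKM in the other controls. The share of Dll1 in ligand FPKM was 20.2% in PBS 1 and 18.1% to 18.3% in the other controls.

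In the wider pathway, Notch4 in BAC 3 was at 1.83 FPKM, against 0.851 to 0.915 FPKM in the other BAC samples. Furin in BAC 1 was at 12.0 FPKM, below the 13.4 to 13.7 FPKM of the others, and Fbxw7 in BAC 1 at 2.56 FPKM, below 4.13 to 4.23 FPKM. Trp63 in BAC 2 was at 27.1 FPKM, above 25.2 to 25.5 FPKM. Among the controls, Pofut1 in PBS 1 was at 3.25 FPKM, below the 4.34 to 4.45 FPKM of the other controls. Spen in PBS 2 was at 8.99 FPKM, above 5.27 to 5.81 FPKM, and Dlk2 in PBS 3 at 2.47 FPKM, above 1.96 to 2.02 FPKM.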

How the results depend on the processing

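Of the 10 genes, 8 passed in each of the 8 fits that left out 1 sample, with 3 higher and 5 lower. Notch3, Jag1, Jag2, Dll1 and Hes1 stayed lower under every scaling, pseudocount and filter tried. With median-of-ratios scaling, 1 of the 10 was higher in place of 3: Notch2 gave 0.16 and Lfng 0.19, neither passing, Nrarp passed at -0.39 and Notch1 was at -0.12; 14 genes of the wider pathway were lower in place of 9. With quantile normalization Lfng gave 0.16 without passing, Nrarp passed at -0.26 and Notch1 was at -0.14; 4967 of all genes were lower in place of 2926, and 15 genes of the wider pathway in place of 9. With the transcript table the Jag2 share of ligands differed by 0.35 points in place of -0.69. With a filter at 2 FPKM Hey1 was not tested. The cause of these shifts was not tested.

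Genes of the wider pathway near 0 changed sign. With median-of-ratios scaling they were Rfng (-0.16), Pofut1 (-0.0237), Adam17 (-0.0212), Aph1a (-0.0556), Crebbp (-0.11), Ncor1 (-0.13), Cir1 (-0.14) and Fbxw7 (-0.0262). With quantile normalization they were Rfng (-0.12), Pofut1 (-0.16), Psen2 (-0.10), Aph1a (-0.00048), Crebbp (-0.20, which passed as lower), Ncor1 (-0.0882), Cir1 (-0.0367) and Fbxw7 (-0.21). Leaving out 1 sample gave Notch1 from -0.00565 to 0.14, Aph1b from -0.0936 to 0.0661 and Ncor1 from -0.00498 to 0.12.

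Samples of the 2 groups share replicate numbers. Deviations of same-numbered samples correlated at 0.0527, 0.109, 0.121 and 0.114, and 7 of 8 samples correlated best with their own number, a hint from the data and not the design. With the replicate number as a block, the same 10 genes gave 8 calls, all genes 8519 in place of 8771, and transcripts 6819 in place of 8080. Exact tests with 1 sample left out or over 4 pairs cannot go below 0.0571 and 0.125. Depth is unknown, so low values such as those of Hey1 with PBS have no counting interval.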

Other observations

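Genes whose profile over the 8 samples lay nearest to each of the 10 were found by the root mean square difference of log2(FPKM + 1), each gene centred on its own mean; these values are a description with no test. Nearest to Notch3 were Oas1a (0.0841) and Tfap2c (0.0921), an epithelial transcription factor gene. Notch1 had Chd3 (0.0654) and Prrc2a (0.0675), and Notch2 had Usf2 (0.0288) and Prep (0.0327). Of the ligands, Jag1 had Abcc4 (0.0583) and Ubald1 (0.0640), Jag2 had Zhx2 (0.0474) and Foxo4 (0.0489), and Dll1 had Parp12 (0.0407) and Etnk1 (0.0426). Of the targets, Hes1 had Ttc8 (0.0767) and Trim25 (0.0768), Hey1 had Gpr137b (0.0506) and Nnt (0.0514), and Nrarp had Hras (0.0730) and Lmbr1 (0.0738). Lfng had Ralgapa2 (0.0593) and Tnfrsf1a (0.0612), the gene of a receptor for tumour necrosis factor.

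Markers of the other cells of the cornea split. Of 6 keratocyte markers, 2 rose and 2 fell, with summed FPKM from 1473 to 1751 in BAC corneas and from 525 to 1039 in PBS corneas. Ptgds, 1 of the 6, was at 82.5 FPKM in BAC 4 and 43.2 FPKM in PBS 4, against 2.42 to 6.49 FPKM in the other samples. Of 5 Schwann cell markers 1, Sox10, was higher. Its PBS mean was 0.192 FPKM, so the filter fixed its direction. Sums of the 5 ran from 19.0 to 29.2 FPKM in BAC corneas and from 18.1 to 21.5 FPKM in PBS corneas. Ngfr, the largest part, was at 15.4 ± 1.17 FPKM with BAC and 15.3 ± 1.94 FPKM with PBS. The highest sum was that of BAC 4, where S100b was at 8.47 FPKM, against 1.31 to 2.11 FPKM in the other BAC samples.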
